A study of Mus musculus with 4 samples.

Results

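The collagen genes of the mouse were followed in primary neural stem/progenitor cells (NSCs) that have or lack Chd5. All rows of the expression table whose name has the form Col, a type number, a and a chain number were taken, which gave 42 genes of 18169 rows. They were divided by type into 11 fibrillar genes, 8 genes of basement membranes and 23 genes of other classes. Col4a3bp, whose name starts in the same way, encodes a lipid transfer protein and was left out. RNA was sequenced from 2 +/+ and 2 Chd5-/- cultures of C57BL/6 mice, each grown from the region around the ventricles of a single newborn brain in medium with epidermal growth factor and fibroblast growth factor 2, on stranded polyadenylated RNA. How the Chd5 allele was made is not given in the sources used here. The growth protocol gives postnatal day 1 for every culture, but the age entries run from day 1 and day 2 (+/+) to day 3 and day 4 (Chd5-/-), so age by these entries and genotype cannot be told apart.

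Most collagens are secreted proteins in which 3 chains wind into a triple helix. Fibrillar types build the fibres of connective tissue, type IV forms the sheet of basement membranes, and most other types sit on fibres, in microfibrils or in the cell membrane. In the neonatal brain, collagens are best known from the meninges and from the basement membranes of blood vessels, and basement membrane material also contacts stem cells around the ventricles. Many types need different chains in 1 molecule, so the level of a chain is best read beside those of its partners.

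Values are in TPM, a unit of transcript abundance that is scaled by transcript length and has the same sum in every sample. Genotypes were compared on log2(TPM + 1) with limma over the 12576 rows that averaged 1 TPM or more, and a log2 fold change here is Chd5-/- minus +/+ on that scale. Its median over all rows was 0.34, so a collagen at 0.34 sits at the median row. Chd5 itself was at 0.39 and 0.37 TPM in +/+ cultures, against 0.06 and 0.04 TPM in Chd5-/- cultures. All 11 markers of NSCs that were looked up were present. Their summed level was 9878 and 8191 TPM in +/+ cultures, against 3988 and 6950 TPM in Chd5-/- replicates 1 and 2. Most of each sum was Fabp7, Slc1a3 and Vim, so it does not describe the markers as a group. Of the 11, 4 lay below both +/+ values in both Chd5-/- samples (Fabp7, Slc1a3, Vim and Sox2), against 13.0% of all rows tested. For Sox2, Chd5-/- replicate 2 was at 432.19 TPM, against 438.99 and 441.66 TPM in +/+ cultures. Egfr lay above both, as did 46.3% of all rows tested, and the others overlapped. Sequencing depth cannot be read from TPM. With a single pair of cultures per genotype the spread of a gene's own values is poorly known. The standard errors of limma also draw on the spread of the other rows tested.

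The promoters of 4 collagen genes are shown because the results turn on them. Col4a5 and Col4a6 are neighbours on chromosome X that start in opposite directions with 1308 bases between their starts, and both were lower in the same Chd5-/- sample. Col11a1 and Col28a1 had an unadjusted p-value under 0.05 under every scaling tried. The sequences are the bases just upstream of the RefSeq start on GRCm38, 5' to 3' on the strand of the gene, at chrX:141475169-141475384 (plus strand), chrX:141474077-141474326 (minus strand), chr3:114030290-114030539 (plus strand) and chr6:8192618-8192867 (minus strand). Windows are 250 bases long, and the last 34 bases for Col4a5 are left out because GENCODE annotates an exon there. Capitals mark the letters CCAAT and GGGCGG on either strand, known as the CCAAT box and the GC box.
Col4a5: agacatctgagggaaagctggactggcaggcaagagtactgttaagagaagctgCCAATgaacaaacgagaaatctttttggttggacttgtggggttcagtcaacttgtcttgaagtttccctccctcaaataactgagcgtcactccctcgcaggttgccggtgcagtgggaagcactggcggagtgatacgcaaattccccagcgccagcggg
Col4a6: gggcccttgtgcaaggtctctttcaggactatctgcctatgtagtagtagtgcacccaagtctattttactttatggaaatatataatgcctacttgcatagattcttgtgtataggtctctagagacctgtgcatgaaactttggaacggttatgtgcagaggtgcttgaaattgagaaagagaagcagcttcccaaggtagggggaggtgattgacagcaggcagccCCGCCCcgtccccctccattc
Col11a1: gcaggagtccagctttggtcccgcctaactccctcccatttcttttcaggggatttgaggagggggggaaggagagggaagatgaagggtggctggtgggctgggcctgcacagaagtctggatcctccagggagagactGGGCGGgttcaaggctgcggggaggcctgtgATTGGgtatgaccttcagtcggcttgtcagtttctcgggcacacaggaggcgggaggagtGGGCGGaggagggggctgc
Col28a1: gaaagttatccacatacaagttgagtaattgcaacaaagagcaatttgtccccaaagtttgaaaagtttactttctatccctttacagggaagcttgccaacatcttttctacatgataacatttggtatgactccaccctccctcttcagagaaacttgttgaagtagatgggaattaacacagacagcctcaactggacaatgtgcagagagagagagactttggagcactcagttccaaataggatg
The upstream window of Col11a1 holds 2 GC boxes and 1 CCAAT box, Col4a6 has 1 GC box that begins 21 bases before its start, and the window of Col28a1 has neither motif nor TATAAA. The CCAAT box of Col4a5 begins 196 bases before its start, and its GC box, 30 bases before it, lies in the part not printed. Among the 36 RefSeq starts found for 33 of the 42 collagen genes, 21 windows (58.3%) have a GC box, 13 (36.1%) a CCAAT box and 4 (11.1%) TATAAA on either strand. Over all 32851 promoter windows of the same length the shares are 32.7%, 33.8% and 12.4%. These are matches of letters and not binding sites.

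Of the 42 collagen genes, 16 had a mean of at least 1 TPM, or 38.1%, against 69.2% of the whole table. Another 23 were under 1 TPM in every sample. Summed over all 42 genes, collagen RNA was 146 and 196 TPM in +/+ cultures, against 200 and 174 TPM in Chd5-/- replicates 1 and 2, so the totals of the genotypes overlapped. In the +/+ samples, 4 genes made up 77.9% and 80.5% of that sum: the fibrillar chains Col5a2 and Col11a1 and the type IV chains Col4a5 and Col4a6. Of the collagen sum, these 4 genes made up 36.9% in Chd5-/- replicate 1 and 61.3% in replicate 2. Both Chd5-/- shares were below both +/+ shares, although the totals overlapped.

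**Figure D1:**
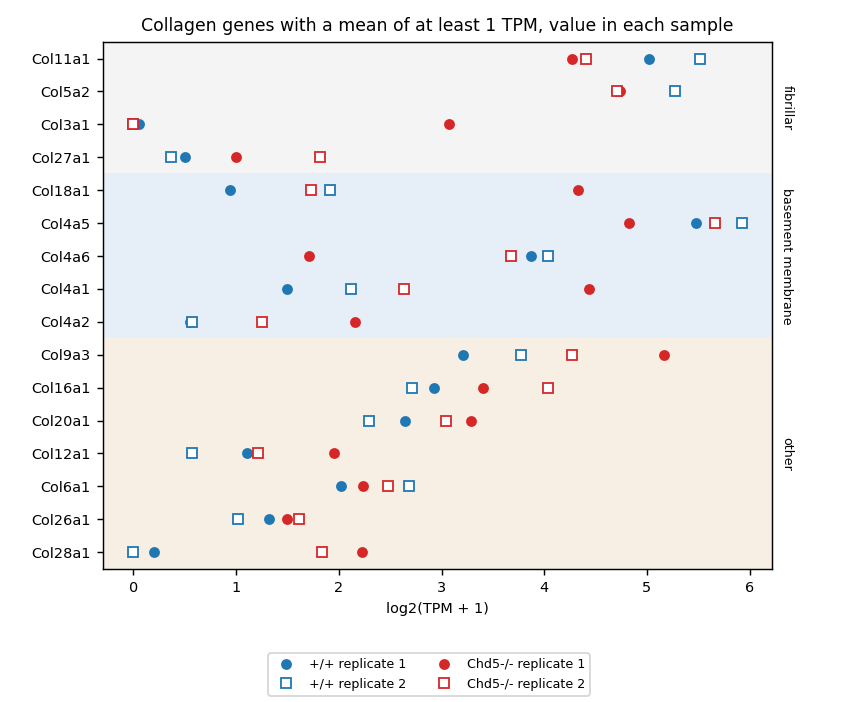
The 16 collagen genes with a mean of at least 1 TPM, 1 gene per line, with log2(TPM + 1) on the x axis and 1 point for each of the 4 samples; shading marks the class. Col11a1 is lower in both Chd5-/- samples, Col28a1 is higher in both, and Col3a1 stands away from 0 in Chd5-/- replicate 1 only.

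With limma, 5 of the 16 genes were higher in Chd5-/- NSCs at an unadjusted p-value under 0.05, against 21.9% of all rows, and 1 was lower, against 2.27%. None passed the Benjamini-Hochberg threshold over all rows, which 0.0557% of rows did, and the smallest adjusted p-value of a collagen was 0.120. In 9 of the 16 genes the Chd5-/- values were above both +/+ values without overlap, as in 46.3% of all rows, and in 2 they were below, as in 13.0%. The share without overlap is near that of the table as a whole. Of the 16 genes, 5 reached the mean of 1 TPM only through the Chd5-/- samples (Col3a1, Col4a2, Col12a1, Col27a1 and Col28a1), which holds for 6.03% of all rows tested, and none only through the +/+ samples. These 5 had to be higher in Chd5-/- NSCs to be tested, so the counts and medians over the 16 describe the genes tested and not collagens as a whole. Col28a1 and Col4a2 are among the 5 genes higher at an unadjusted p-value under 0.05. The median log2 fold change of the 16 genes was 0.82. It was 0.35 for the 4 fibrillar genes, 1.14 for the 5 basement membrane genes and 0.74 for the 7 others. Over all 42 genes, with no minimum level, it was 0.17, against 0.19 over all rows with no minimum level. Without Chd5-/- replicate 1 the fibrillar median was -0.15 and the basement membrane median 0.30. Once the trends of each sample with GC content and transcript length had been taken out, the median of all 16 was -0.043, that of the fibrillar genes -0.30, that of the basement membrane genes 0.18 and that of the others -0.098, and 1 collagen was higher and 2 lower at an unadjusted p-value under 0.05. The GC content of the longest transcript was above the median of all rows (49.2%) for 14 of the 16 collagens.

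Among fibrillar genes, Col11a1 (chr3:114030540-114220718), a chain of type XI collagen that helps to set fibril width in cartilage, was at 31.39 and 44.82 TPM in +/+ cultures, against 18.29 and 20.25 TPM in Chd5-/- cultures. Both Chd5-/- samples were below both +/+ samples, and they differed from each other by less than the +/+ samples did. The log2 fold change was -0.93 (standard error 0.27, unadjusted p = 0.0181, adjusted p = 0.149, limma), or 1.27 below the median row. Its direction held under 13 alternatives, and without +/+ replicate 2 the value was -0.68 (unadjusted p = 0.149). Without the GC and length trends it was -1.27, but the median of all rows also fell, from 0.34 to -0.029.

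Col5a2, the second chain of type V collagen, was of similar abundance, but its groups overlapped. It was at 25 and 37.77 TPM in +/+ cultures, against 25.75 and 25.13 TPM in Chd5-/- cultures. Both Chd5-/- values lay between the +/+ values, with a log2 fold change of -0.26 (95% interval -0.98 to 0.46). The other chains of these molecules were nearly absent. Col5a1, which type V collagen normally needs, was at 0.29 to 1.16 TPM over the 4 samples, Col11a2 at 0.03 to 0.11 TPM and Col2a1, which gives type XI its remaining chain, at 0.00 to 0.25 TPM. Col5a2 was 22.2 to 130 times as high as Col5a1 and Col11a1 was 166 to 1494 times as high as Col11a2 over the 4 samples. Mixed molecules of the Col11a1 and Col5a2 chains are known from other tissues, but chain assembly was not measured here.

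Col3a1, which forms type III collagen on its own, was at 0.04 and 0.00 TPM in the +/+ samples, at 7.41 TPM in Chd5-/- replicate 1 and at 0.00 TPM in Chd5-/- replicate 2. A single culture sets its log2 fold change of 1.51 (95% interval -1.07 to 4.08), which was -0.028 without Chd5-/- replicate 1 and 3.04 without replicate 2. Col1a1 reached at most 0.07 TPM and Col1a2 at most 0.20 TPM, so the chains of type I collagen, with which type III is usually made, were near 0 in the sample with Col3a1. Col3a1 and Col5a2 are also neighbours on chromosome 1, where they end facing each other at chr1:45311538-45349706 and chr1:45374321-45503282. Col5a2 was at nearly the same level in both Chd5-/- samples while Col3a1 was found in one of them. Col27a1, a fibrillar collagen of cartilage, was at 0.42 and 0.29 TPM in +/+ cultures, against 1.00 and 2.53 TPM in Chd5-/- cultures, the higher value being in replicate 2. The remaining fibrillar genes, Col5a3 and Col24a1, stayed under 1 TPM.

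**Figure D2:**
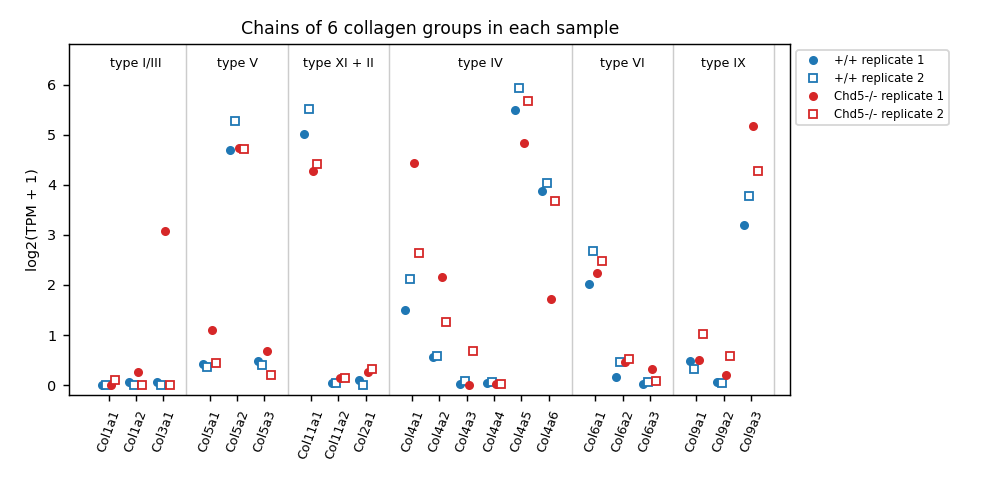
Chains of 6 groups of collagens on the x axis, with log2(TPM + 1) on the y axis and 1 point per sample. Col5a2, Col11a1, Col6a1 and Col9a3 stand far above the other chains of their types in all 4 samples, and in Chd5-/- replicate 1 the type IV chains Col4a5 and Col4a6 are at their lowest and Col4a1 and Col4a2 at their highest.

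The 6 type IV genes lie in 3 pairs that start head to head, and all 3 are listed here by pair. Col4a1 and Col4a2, the chains of almost all basement membranes, overlap by 22 bases at their starts on chromosome 8 (chr8:11312805-11312826). Col4a1 was at 1.82 and 3.34 TPM in +/+ cultures, against 20.68 and 5.20 TPM in Chd5-/- replicates 1 and 2. Col4a2 was at 0.47 and 0.49 TPM in +/+ cultures, against 3.45 and 1.39 TPM in Chd5-/- replicates 1 and 2. Both genes had their highest value in Chd5-/- replicate 1, their next in replicate 2, and no overlap between genotypes. The log2 fold change was 1.73 for Col4a1 (standard error 0.65, adjusted p = 0.195, limma) and 1.14 for Col4a2 (standard error 0.44, adjusted p = 0.200). Without Chd5-/- replicate 1 they were 0.83 and 0.69, and without the GC and length trends 0.89 and 0.18, neither of the latter at an unadjusted p-value under 0.05. Without replicate 2, they were 2.63 and 1.59. In molecules of these chains Col4a1 is used more than Col4a2, and its TPM was 3.74 to 6.82 times that of Col4a2 over the 4 samples.

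Col4a5 and Col4a6, which can form molecules together and mark a smaller set of basement membranes, were the more abundant pair in the +/+ samples. Col4a5 was at 43.71 and 59.70 TPM there and at 27.37 and 49.74 TPM in Chd5-/- replicates 1 and 2. Col4a6 was at 13.64 and 15.42 TPM in +/+ cultures, against 2.28 and 11.76 TPM in Chd5-/- replicates 1 and 2. Both were lowest in Chd5-/- replicate 1, where Col4a1 and Col4a2 were highest, whereas replicate 2 lay within the +/+ range for Col4a5 and just below it for Col4a6. The log2 fold change was -0.46 for Col4a5 (95% interval -1.37 to 0.46) and -1.26 for Col4a6 (95% interval -2.94 to 0.42). Without Chd5-/- replicate 1 they were -0.038 and -0.28, and without replicate 2 -0.88 and -2.24. Without the GC and length trends Col4a6 was at -1.87 (unadjusted p = 0.0394). Col4a5 was 24.0 and 17.9 times as high as Col4a1 in the +/+ samples, 9.57 times in Chd5-/- replicate 2 and 1.32 times in replicate 1. Col4a3 and Col4a4, with 71 bases between their starts on chromosome 1, were under 1 TPM in every sample, the highest value being 0.60 TPM for Col4a3 in Chd5-/- replicate 2.

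Col18a1, a basement membrane collagen that carries heparan sulfate and releases endostatin, was at 0.92 and 2.76 TPM in +/+ cultures, against 19.05 and 2.31 TPM in Chd5-/- replicates 1 and 2. Replicate 2 was inside the +/+ range and replicate 1 was 8.25 times as high as replicate 2. Its relative Col15a1 had the same pattern at a lower level, with 0.09 and 0.00 TPM in the +/+ samples and 3.11 and 0.16 TPM in the Chd5-/- samples. Its mean was under the minimum for testing.

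**Figure D3:**
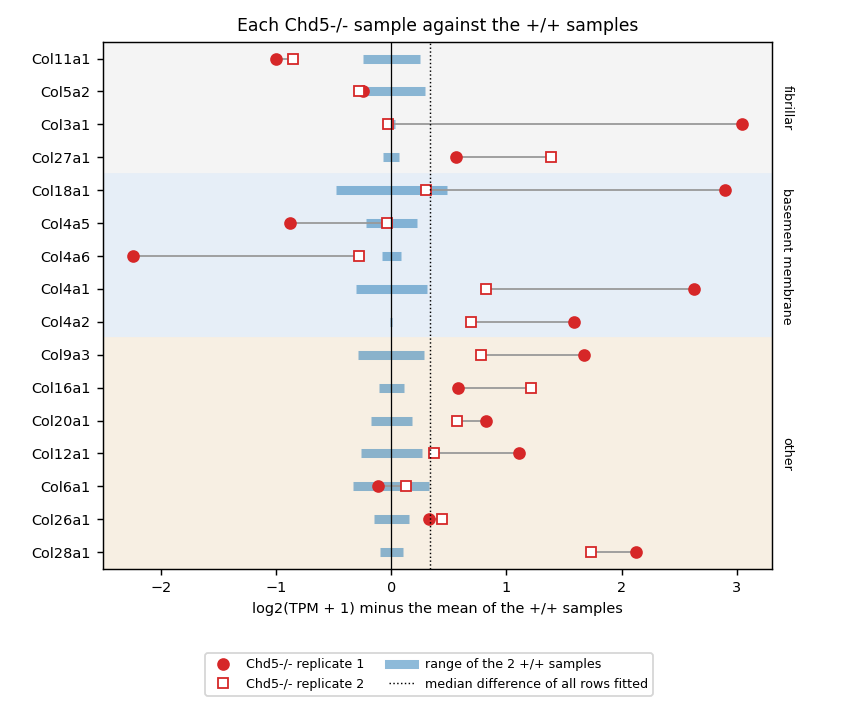
Each Chd5-/- sample against the mean of the +/+ samples in log2(TPM + 1) on the x axis, 1 collagen gene per line; the blue bar spans the 2 +/+ samples and the dotted line is the median difference of all rows, 0.34. The 2 Chd5-/- points lie close together for Col11a1 and Col28a1 and far apart for Col3a1, Col18a1, Col4a6 and Col4a1.

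Outside these classes, the collagens that lie on fibre surfaces (FACIT) were the most abundant. Their summed level was 21.8 and 23.0 TPM in +/+ cultures, against 57.1 and 43.8 TPM in Chd5-/- replicates 1 and 2, so that the genotypes did not overlap. Col9a3, a chain of the cartilage collagen type IX, was the most abundant of them in every sample. It was at 8.23 and 12.72 TPM in +/+ cultures, against 34.89 and 18.29 TPM in Chd5-/- cultures (log2 fold change 1.23 with a standard error of 0.41, adjusted p = 0.168, limma). Its partners Col9a1 and Col9a2 were at 0.25 to 1.02 TPM and 0.03 to 0.50 TPM, far below Col9a3 in each sample. Its log2 fold change was 0.26 (unadjusted p = 0.590) without the GC and length trends, and 0.78 (unadjusted p = 0.0949) without Chd5-/- replicate 1.

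Col16a1, which is associated with fibrils and small microfibrils, was at 6.62 and 5.54 TPM in +/+ cultures, against 9.56 and 15.38 TPM in Chd5-/- cultures (log2 fold change 0.90, standard error 0.33, adjusted p = 0.191, limma). Here replicate 2 had the higher of the Chd5-/- values. Its direction turned when the GC and length trends were taken out, to -0.098, and the GC content of its transcript is 61.4%. Col20a1, a little studied member of the class, was at 5.25 and 3.89 TPM in +/+ cultures, against 8.79 and 7.22 TPM in Chd5-/- cultures, and its log2 fold change of 0.70 also turned, to -0.099. Col12a1, which binds the surface of type I fibres, was at 1.16 and 0.49 TPM in +/+ cultures, against 2.86 and 1.32 TPM in Chd5-/- cultures.

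Col28a1 had the largest log2 fold change of the 16 collagens as deposited. The gene (chr6:7997808-8192617, minus strand) encodes a collagen with von Willebrand factor A domains that is known from the peripheral nervous system. It was at 0.15 and 0.00 TPM in +/+ cultures, against 3.67 and 2.57 TPM in Chd5-/- cultures. Both Chd5-/- samples were above both +/+ samples, and they were closer to each other than to either +/+ sample. The log2 fold change was 1.93 (standard error 0.37, 95% interval 0.99 to 2.86, unadjusted p = 0.00295, adjusted p = 0.120, limma), or 1.59 above the median row. Col28a1 reached the mean of 1 TPM only through the Chd5-/- samples, and with no minimum level its unadjusted p-value was 0.000933 (adjusted p = 0.194, limma). It was positive with an unadjusted p-value under 0.05 under 12 alternatives, over which the adjusted p-value ranged from 0.0152 to 0.759. With +/+ values near 0 its size depends on the pseudocount, and it was 4.33 with a pseudocount of 0.1 TPM and 0.67 with 5 TPM.

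Col6a1, a chain of the microfibrils of type VI collagen, was at 3.07 and 5.44 TPM in +/+ cultures, against 3.71 and 4.58 TPM in Chd5-/- cultures, both inside the +/+ range. Its log2 fold change was 0.0020 (95% interval -0.92 to 0.93). Col6a2 and Col6a3, with which it forms the microfibril, were under 0.5 TPM throughout, and Col6a1 was 10.03 to 25.6 times as high as Col6a2. Col26a1, a secreted collagen known from the gonads, was at 1.5 and 1.03 TPM in +/+ cultures, against 1.82 and 2.06 TPM in Chd5-/- cultures. Its log2 fold change of 0.38 was close to that of the median row. The other collagens of these classes that were not tested (16 genes) stayed at or under 1.02 TPM. They include the transmembrane collagens Col13a1, Col17a1, Col23a1 and Col25a1, the anchoring fibril gene Col7a1 and the vascular collagens Col8a1 and Col8a2, of which Col8a1 reached 0.77 TPM and Col8a2 0.31 TPM, both in Chd5-/- replicate 1. Col14a1, Col19a1 and Col22a1 of the fibre surface and the type VI chains Col6a4 and Col6a5 reached at most 0.30 TPM.

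**Figure D4:**
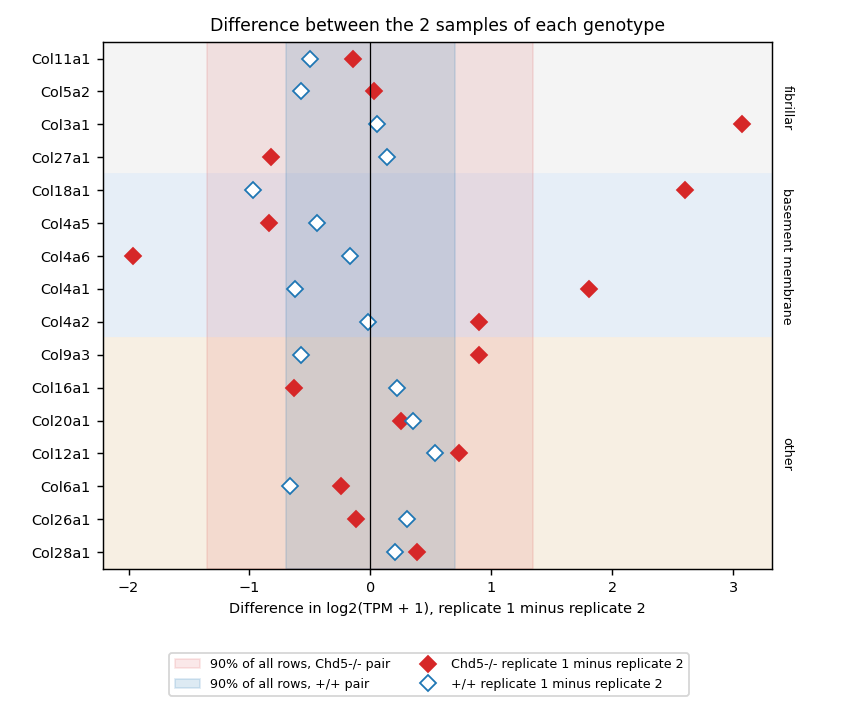
Difference between replicate 1 and replicate 2 in log2(TPM + 1) on the x axis for the Chd5-/- pair (red) and the +/+ pair (blue outline), 1 collagen gene per line; the bands hold 90% of all rows, 1.35 on either side of 0 for the Chd5-/- pair and 0.70 for the +/+ pair. Col3a1, Col18a1 and Col4a1 lie beyond the Chd5-/- band on the side of replicate 1 and Col4a6 on the side of replicate 2.

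Agreement between the Chd5-/- samples differed from gene to gene. Their median absolute difference over the 16 genes was 0.78 in log2(TPM + 1), against 0.40 over all rows, and that of the +/+ samples was 0.40, against 0.25 over all rows. By class it was 1.81 for basement membrane genes, 0.48 for fibrillar genes and 0.39 for the others. The Chd5-/- samples differed by 1 or more for 4 of the 16 genes, against 16.9% of all rows, and the +/+ samples for 0 of the 16, against 4.05%. Of the 16 genes, 3 were higher by 1 or more in replicate 1, against 8.87% of all rows, namely Col3a1 (3.07), Col18a1 (2.60) and Col4a1 (1.81), and Col4a6 (-1.96) was higher in replicate 2. Of the 16, 9 were higher in replicate 1 and 7 in replicate 2, so neither sample was higher throughout. Chd5-/- replicate 1 was the highest of the 4 samples for 8 of the 16, against 36.7% of all rows tested. Among these 8 are Col3a1, Col4a2, Col12a1 and Col28a1, which reached the mean of 1 TPM only through the Chd5-/- samples. That held for 31.2% of the 16 and 6.03% of all rows tested, so the filter itself favoured high Chd5-/- values among the 16. Over all 42 genes replicate 1 was the highest for 24, against 38.2% of the whole table, and replicate 2 for 10. These counts of highest values were added after the values were seen.

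The adjusted calls also depended on which Chd5-/- culture was used. Without Chd5-/- replicate 2, 6 of the 16 collagens passed the adjusted threshold with limma, against 8.64% of all rows, namely Col3a1, Col4a1, Col4a2, Col4a6, Col18a1 and Col28a1. Without Chd5-/- replicate 1, 2 passed it, against 9.92% of all rows, namely Col27a1 and Col28a1. Col3a1, Col4a2, Col27a1 and Col28a1 are among the genes that reached the mean of 1 TPM only through the Chd5-/- samples. Such genes were 31.2% of the 16 and 6.03% of all rows tested, so the filter itself favoured these calls among the 16. In each of these fits the lone Chd5-/- culture is assumed to vary like the +/+ pair. The 2 fits share both +/+ cultures and are not independent of each other.

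Some genes of other cell types were also highest in Chd5-/- replicate 1, where Col3a1, Col18a1 and Col4a1 were highest. Of 16 markers of mesenchymal and meningeal cells, 15 were in the table, with a summed level of 99.4 and 128 TPM in the +/+ samples, 487 TPM in Chd5-/- replicate 1 and 84.2 TPM in replicate 2. Of the 15, 6 were under 1 TPM in every sample. Chd5-/- replicate 1 was the highest of the 4 samples for 9 of the 15 and for 2 of the 11 NSC markers, against 38.2% of the whole table. In the +/+ samples most of the sum was Prrx1, a mesenchymal transcription factor, at 58.95 and 92.48 TPM, against 29.15 and 24.18 TPM in Chd5-/- cultures. Foxc1, a transcription factor of the meninges, was at 19.87 and 17.81 TPM in +/+ cultures, against 26.59 and 5.57 TPM in Chd5-/- replicates 1 and 2. Twist1, another mesenchymal factor, was at 0.26 and 0.00 TPM in +/+ cultures, against 2.92 and 5.16 TPM in Chd5-/- cultures. The list thus held genes that were higher, lower or mixed in the Chd5-/- samples. Most of the sum in replicate 1 was Thy1, at 388.35 TPM, a surface protein that neurons also carry. Postn was at 15.11 TPM, Acta2 at 9.55 TPM and Dcn at 4.17 TPM in replicate 1, and the highest value of the 3 genes in the other samples was 0.30 TPM. Other defining genes of these cells were near 0 in replicate 1, with Pdgfrb at 0.08 TPM, Lum at 0.37 TPM and Twist2 and Tbx18 listed at 0.00 TPM. The 7 endothelial genes in the table summed to 5.17 and 19.78 TPM in +/+ cultures, against 2.38 and 1.29 TPM in Chd5-/- cultures, of which Flt1 alone was 4.29 and 19.45 TPM, against 1.02 and 0.69 TPM, and each of the others was at no more than 0.59 TPM. Pericyte genes (8 in the table) summed to 9.46 and 9.54 TPM in +/+ cultures, against 16.2 and 23.76 TPM in Chd5-/- replicates 1 and 2. Most of this was Notch3 and Cspg4, which lay above both +/+ values in both Chd5-/- samples, while Pdgfrb was at no more than 0.08 TPM. Of the 8, 4 were highest in Chd5-/- replicate 1, against 38.2% of the whole table. Among them were Vtn at 2.84 TPM and Anpep at 1.40 TPM, each at no more than 0.19 TPM in the other samples. Abcc9, also among them, reached 0.14 TPM. Rgs5 was highest in +/+ replicate 2, at 1.36 TPM, against 0.79 TPM in Chd5-/- replicate 1. Kcnj8 was highest in Chd5-/- replicate 2, at 0.10 TPM. Microglial genes (3 in the table) summed to 0.21 to 1.02 TPM. Chd5-/- replicate 1 was the highest for all 3 of them and for 3 of the 7 endothelial genes. Genes of the choroid plexus epithelium (6 in the table) summed to 28.63 and 18.56 TPM in +/+ cultures, against 119 and 37.56 TPM in Chd5-/- replicates 1 and 2, mostly Otx2. Of these 6, 4 were highest in Chd5-/- replicate 1, against 38.2% of the whole table. Among them was Folr1 at 18.48 TPM, against no more than 0.24 TPM in the other samples. Clic6 and Aqp1, also among them, stayed at or under 0.45 TPM. Kl was at its lowest in replicate 1, at 0.04 TPM, and Kcne2 was listed at 0.00 TPM there. Other cells in the cultures and a change of the NSCs themselves cannot be told apart in bulk RNA, nor can fewer cells of a type and less RNA per cell, and the part of these genes in the collagen values was not tested.

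Collagen chains are hydroxylated and folded in the endoplasmic reticulum, cleaved and cross-linked outside the cell, and read by receptors. Of 68 genes listed for these steps 65 were in the table and 50 could be tested. At an unadjusted p-value under 0.05, 14 were higher in Chd5-/- NSCs, against 21.9% of all rows, and 1 was lower, against 2.27%. None passed the adjusted threshold. After median-of-ratios scaling 7 genes of these lists had an unadjusted p-value under 0.05 in either direction, against 2819 of 12576 rows. Without the GC and length trends 6 had one, against 1313 of 11700 rows. The median log2 fold change of the 50 genes was 0.78. Of the 50, 10 reached the mean of 1 TPM only through the Chd5-/- samples, or 20.0%, against 6.03% of all rows tested. These genes had to be higher in Chd5-/- NSCs to be tested, so the counts and medians describe only the genes tested. The Chd5-/- samples differed by 1 or more for 26 of the 50, against 16.9% of all rows, of which 18 were higher in replicate 1 and 8 in replicate 2, and the median absolute difference was 1.09. The 18 include Bgn, Dcn, Fkbp10, Loxl4, Mmp2, Pcolce, Postn and Tll1, which reached the mean only through the Chd5-/- samples. The filter itself thus favoured the count for replicate 1.

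Of the 18 folding and hydroxylation genes tested, 7 were higher and 1 lower at that threshold, against 21.9% and 2.27% of all rows. Plod1, a lysyl hydroxylase of collagen, was at 10.34 and 6.64 TPM in +/+ cultures, against 41.81 and 32.83 TPM in Chd5-/- cultures (log2 fold change 2.03 with a standard error of 0.31, adjusted p = 0.120, limma). The lysyl hydroxylase Plod3 (log2 fold change 1.06), the prolyl isomerase Ppib (0.82) and P3h3 (1.37) and P3h4 (1.36), which belong to a complex for lysine hydroxylation, also had both Chd5-/- values above both +/+ values. For Plod1, Plod3, Ppib and P3h3 the Chd5-/- cultures were closer to each other than to either +/+ culture. They differed by 1 or more for 6 of the 18 genes, all higher in replicate 1. Among these, chosen after their values were seen, the prolyl hydroxylase gene P4ha1 was at 412.06 TPM in replicate 1 and 172.4 TPM in replicate 2, P4ha2 at 18.56 and 3.03 TPM, and the collagen chaperone Fkbp10 at 5.62 and 0.65 TPM. Mia3, which helps procollagen to leave the endoplasmic reticulum and is named after its values were seen, was at 83.91 and 91.16 TPM in +/+ cultures, against 56.77 and 62.39 TPM in Chd5-/- cultures.

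Of the 11 partners of collagen and of the basement membrane that were tested, 2 were higher and 0 lower, against 21.9% and 2.27% of all rows. Sparc, a secreted glycoprotein that binds collagen, was at 119.53 and 192.81 TPM in +/+ cultures, against 664.18 and 850.36 TPM in Chd5-/- cultures (log2 fold change 2.30 with a standard error of 0.32, adjusted p = 0.120, limma). Hspg2, the basement membrane proteoglycan perlecan, was at 0.46 and 0.46 TPM in +/+ cultures, against 4.23 and 2.02 TPM in Chd5-/- cultures. Fn1, the fibronectin on which collagen is laid down, was at 5.01 and 8.61 TPM in +/+ cultures, against 154.09 and 12.16 TPM in Chd5-/- replicates 1 and 2, and so it was high in the same sample as Col3a1, Col4a1 and Col18a1.

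The counts that follow are to be read against the 21.9% of all rows that were higher at the same threshold. Of 8 cross-linking and propeptide genes tested 1 was higher, Loxl2, an enzyme that oxidises lysines and acts on type IV collagen. It was at 5.14 and 12.01 TPM in +/+ cultures, against 42.29 and 17.46 TPM in Chd5-/- replicates 1 and 2. Of 5 receptors tested 1 was higher, Mrc2, which takes up collagen for degradation, at 0.17 and 0.02 TPM in +/+ cultures, against 4.66 and 2.96 TPM in Chd5-/- cultures. Like Hspg2, it reached the mean for testing only through the Chd5-/- samples. Among 8 degrading enzymes and inhibitors tested, 3 were higher, the inhibitor Timp1 (log2 fold change 1.45) and the membrane-bound proteinases Mmp14 (1.07) and Mmp15 (0.95). Mmp2, which cleaves type IV collagen, was at 0.76 and 0.28 TPM in +/+ cultures, against 15.17 and 1.34 TPM in Chd5-/- replicates 1 and 2, without an unadjusted p-value under 0.05.

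**Figure D5:**
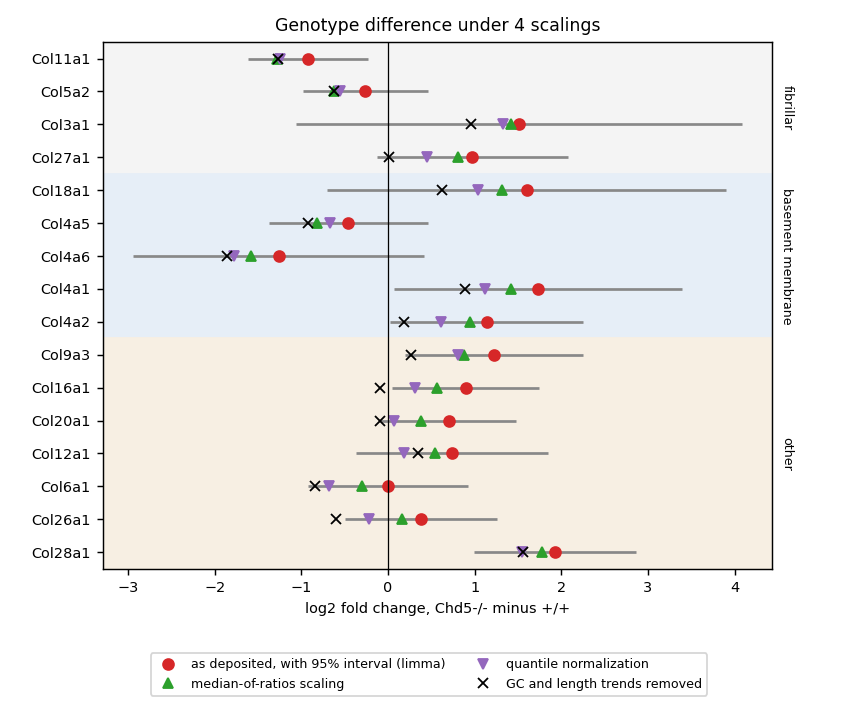
Log2 fold change, Chd5-/- minus +/+, on the x axis for the 16 collagen genes as deposited (red, with the 95% interval of limma) and under 3 other scalings. Col28a1 stays above 0 and Col11a1 below 0 under each, whereas Col16a1, Col20a1, Col26a1 and Col6a1 change sign under 1 or more of them.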

How the data were processed

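RNA-seq was analysed in 2 +/+ and 2 Chd5-/- samples of mouse NSCs. The authors deposited TPM values, 1 column per sample. The submitters' processing notes name Bowtie2 2.2.3, RSEM 1.2.20 and the build mm10; the annotation is not given in the sources used here. The values sum to the same total in each sample, and no depth can be read from them.

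From these values, log2(TPM + 1) was computed for rows that averaged 1 TPM or more and tested with limma 3.58.1 in R 4.3.3 (eBayes with a trend, two-sided), with Benjamini-Hochberg adjustment over all rows. An exact permutation of 2 samples against 2 cannot give a p-value below 0.333. Positions came from GENCODE M21 and promoters from RefSeq, both on GRCm38. GC content and length were known for 93.0% of tested rows. Every collagen is a member. Values per sample were to be printed for tested collagens that had an unadjusted p-value under 0.05, differed by 1 without overlap, differed by 2 between the Chd5-/- samples or were among the 10 most abundant, and Col1a1, Col1a2, Col3a1, Col4a1 and Col4a2 in any case, and those of Col12a1, Col15a1, Col26a1 and Col27a1 and the ranges of untested chains were added after they were seen. Of other lists, up to 5 genes by p-value were named, besides markers and folding genes picked after their values were seen. The members and lists were chosen with earlier results of these data known. The samples are separate cultures of single newborns by the growth protocol. The script was tested on simulated data. Alternatives were other pseudocounts, minimum values, scalings, eBayes without a trend, a block for the replicate number and leaving out each sample. Python 3.11.15 and matplotlib 3.10.9 were used for tables and figures.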

Additional observations from a re-analysis of the deposited data

How the results depend on the processing

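Col28a1 kept its direction and an unadjusted p-value under 0.05 under 12 alternatives, and Col11a1 under 12 of 13. The number of all rows past the adjusted threshold, 7 as deposited, was 4 with a pseudocount of 0.1 TPM, 0 without a minimum TPM (3473 had an unadjusted p-value under 0.05), 1 after quantile normalization, 3 without the trends of each sample with GC content and length, and 0 to 1247 with a sample left out. In those last fits the lone sample is assumed to vary like the other genotype. The number of collagens higher at an unadjusted p-value under 0.05, 5 as deposited, was 3 with a pseudocount of 5 TPM, 1 with a minimum of 10 TPM, after either scaling (median of ratios, quantile) and without GC and length trends, and 1 to 7 with a sample left out. The number lower, 1 as deposited, was 2 with trends removed and 0 to 3 with a sample left out. The genes of collagen processing at that threshold, 15 as deposited, were 8 with a minimum of 10 TPM, 7 with median-of-ratios scaling, 6 with quantile normalization, 6 with trends removed and 5 to 31 with a sample left out.

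The median log2 fold change of all tested collagens, 0.82 as deposited, was 1.12 and 0.38 with pseudocounts of 0.1 and 5 TPM, 0.17 without a minimum, -0.46 with a minimum of 10 TPM, 0.55 with median-of-ratios scaling, 0.24 with quantile normalization, -0.043 with trends removed and 0.41 to 0.97 with a sample left out. In the same order the fibrillar median was 0.82, 0.047, 0.10, -0.60, 0.092, -0.051 and -0.30, and -0.15 to 0.46 with a sample left out. The basement membrane median was 1.99, 0.42, 0.68, -0.86, 0.95, 0.61 and 0.18, and 0.30 to 1.59 with a sample left out. The median of the others was 0.99, 0.44, 0.17, 1.23, 0.54, 0.18 and -0.098, and 0.52 to 0.94 with a sample left out. With a minimum of 10 TPM fewer collagens were tested. Over all rows the median, 0.34 in the values as deposited, was 0.37 and 0.24 with pseudocounts of 0.1 and 5 TPM. It was 0.19 without a minimum and 0.19 with a minimum of 10 TPM. It was 0.0052 for median of ratios, -0.054 for quantile normalization and -0.029 with trends removed. The share of higher rows among those that differed by 2-fold or more was 92.0% as deposited, 69.8% and 62.1% after the scalings and 58.1% with trends removed. The median absolute difference between the Chd5-/- samples was 0.37 with a pseudocount of 5 TPM and 0.27 without a minimum. The causes of these shifts were not tested.

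Reversed directions of single genes were those of Col6a1 (-0.0070 with a pseudocount of 5 TPM, -0.30 with median-of-ratios scaling, -0.68 with quantile normalization, -0.85 with trends removed, and -0.33 to 0.33 with a sample left out), Col26a1 (-0.22 after quantile normalization, -0.60 with trends removed), Col20a1 (-0.099) and Col16a1 (-0.098) with trends removed, Col3a1 (-0.028 to 3.04) and Col5a2 (-0.55 to 0.024) with a sample left out.

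The replicate numbers name separate cultures and do not pair them by the labels, and the deviations of same-numbered samples correlated at -0.15 over all rows. With the replicate number as a block, 0 rows passed the adjusted threshold and 2289 had an unadjusted p-value under 0.05. Under this block 2 collagens were higher and 1 lower at that threshold.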

Other observations

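Proteins other than collagens also contain a collagen triple helix, and a list of 29 such genes was written after the collagen values were seen. Of these, 18 were in the table and 8 could be tested. One was higher in Chd5-/- NSCs at an unadjusted p-value under 0.05, against 21.9% of all rows. It was C1qtnf5, a secreted relative of complement C1q that is known from the retina, at 0.64 and 0.41 TPM in +/+ cultures, against 4.88 and 7.70 TPM in Chd5-/- cultures (log2 fold change 2.23, standard error 0.37, adjusted p = 0.120, limma). C1qtnf5 reached the mean for testing only through the Chd5-/- samples, so that it had to be higher there to be tested. The Chd5-/- samples disagreed for C1ql3, a synaptic C1q-like protein at 4.65 and 11.84 TPM in +/+ cultures, against 57.72 and 9.57 TPM in Chd5-/- replicates 1 and 2. They disagreed the other way for Emilin1, an elastic fibre protein at 0.48 and 0.55 TPM in +/+ cultures, against 0.98 and 5.38 TPM in Chd5-/- cultures. Colq, the collagen-like tail of acetylcholinesterase, was at 0.00 and 0.03 TPM in +/+ cultures, against 1.42 and 0.70 TPM in Chd5-/- cultures, with a mean under the minimum for testing.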
